A study of Homo sapiens with 5 samples.

Results

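The enzymes that make serine from a glycolytic intermediate and pass its carbon to folate were followed in an RNA-seq comparison of HUDEP-2 cells labelled ERF knockout with HUDEP-2 cells labelled wild type. The members were 10 genes chosen by symbol, and all 10 were among the 11976 genes of the authors' deposited table. They fell into 3 groups by role: 3 enzymes of serine synthesis (PHGDH, PSAT1, PSPH), 4 mitochondrial folate enzymes (SHMT2, MTHFD2, MTHFD1L, ALDH1L2) and 3 cytosolic folate enzymes (SHMT1, MTHFD1, TYMS). All 7 enzymes of the first 2 groups were lower in the libraries labelled knockout, whereas the cytosolic enzymes differed by at most 1.13-fold, with only SHMT1 past the threshold.

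Serine is made in the cytosol by a pathway that branches from glycolysis. Its side chain then supplies one-carbon units to folate, mainly inside mitochondria, from where they leave as formate and are built into purines and thymidylate in the cytosol. Dividing erythroid progenitors need these units for DNA synthesis, and folate shortage is a classical cause of megaloblastic anaemia. Several genes of serine synthesis and of the mitochondrial branch are known targets of ATF4, the transcription factor of the amino acid response.

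The HUDEP-2 line consists of immortalised erythroid progenitors from umbilical cord blood. The knockout group held 3 libraries of cells with the genotype ERF knockout, and the wild-type group held 2 libraries, whose titles carry the unexplained letters SCR. ERF is a transcriptional repressor of the ETS family, and the purpose of the series, by its title, concerns ERF and γ-globin. The labels give neither the edit that removed ERF, nor whether the knockout libraries are 1 clone or several, nor the culture stage.

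The authors' deposited table holds 1 log2 fold change, 1 mean log2 CPM (CPM being counts scaled to library totals, averaged over all libraries), 1 F statistic and 1 adjusted p per gene. It has no value per library, so neither the spread over samples nor the depth of a library can be given. A gene is called here when its Benjamini-Hochberg adjusted p in the authors' deposited table (edgeR quasi-likelihood test) is below 0.05. Standard errors and 95% intervals were derived from the deposited fold changes and F statistics and are approximate. Whether replicate libraries stem from different cultures is unlabelled, and the p-values therefore cover only the variation among these 5 libraries, possibly technical. All 12 erythroid markers examined were measured, at 6.90 to 12.48 mean log2 CPM in the authors' deposited table. Of 12 markers of other cells 5 were measured, among them the mast cell gene TPSAB1 at 9.18, ITGA2B at 7.26 and PTPRC at 5.95. In bulk RNA, fewer cells of a type and less RNA per cell cannot be told apart.

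The direction of the comparison is not named in the header. It was set so that the γ-globin gene HBG2 is higher in the libraries labelled knockout (log2 fold change 1.88, the authors' deposited table with its sign turned), after the series title. Under this sign ERF itself, the targeted gene, stood 1.85-fold above wild type in the libraries labelled knockout (the authors' deposited table), which goes against that label, although RNA level does not measure ERF protein. A measurement apart from both genes bears on the sign. With 3 knockout and 2 wild-type libraries of equal depth, counting error makes a low gene's fold change less precise when the gene is higher in the group of 3, by a variance ratio of 1.36 to 1.45 if the sign is right and of 0.69 to 0.74 if it is wrong. Among 208 genes below 3 log2 CPM and with absolute log2 fold changes of 1 to 2, the ratio measured in 4 expression bins was 1.30 to 1.48. Unequal depth of the groups would move this ratio, and the depth is unknown. The predicted ratios hold counting error alone, whereas the measured ones rest on the derived, approximate standard errors, so how closely they match carries little weight. Every direction below assumes this sign, and with the other sign each is exchanged.

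Of the 10 members, 8 were lower and 0 higher in the libraries labelled knockout. Over the whole table, 50.9% of genes were called in the authors' deposited table, 25.9% lower and 24.9% higher. At least 2-fold lower were 6 of the 10 members, against 2.26% of all genes, and at least 2-fold higher were 0 of the 10, against 1.01%. The median log2 fold change was -1.37 over the members and -0.00186 over all genes of the authors' deposited table. These counts describe members that were chosen with earlier results of the same table known. Markers of erythroid cells moved with the comparison, with 8 of 12 higher and 0 lower. Of the 5 measured markers of other cells, TPSAB1 was higher (0.61) and VIM lower (-0.52) in the authors' deposited table. ITGA2B (-0.07), PTPRC (0.08) and LYZ (-0.19) had no call in the authors' deposited table. The part of all these markers in the members' values was not tested. Without ALDH1L2, which lies below 1 log2 CPM, the members' median was -1.02.

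**Figure D1:**
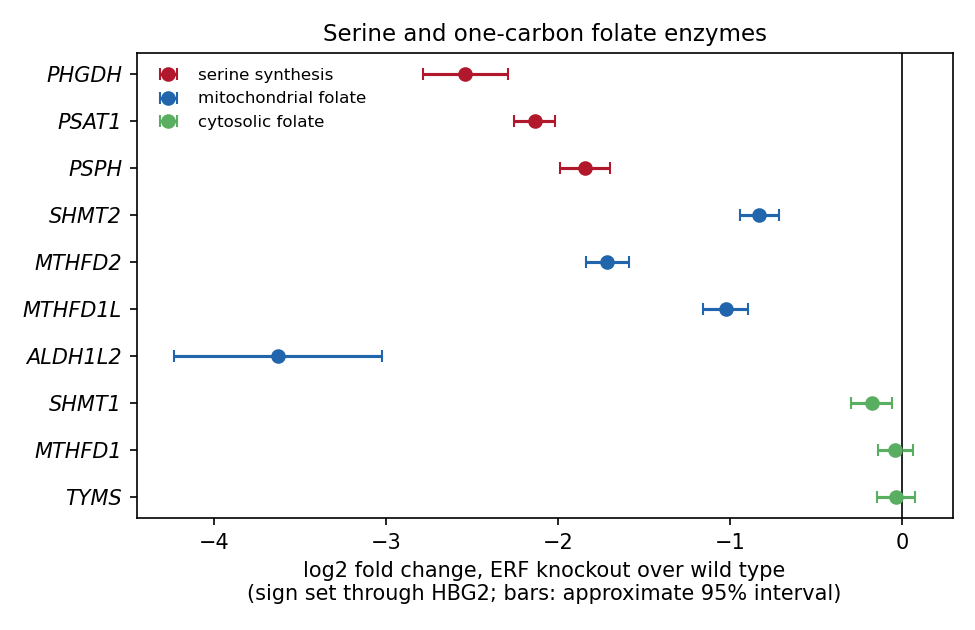
Log2 fold change (x axis, libraries labelled ERF knockout over wild type, sign set through HBG2) of the 10 members, coloured by role, with approximate 95% intervals as bars. The 3 serine synthesis enzymes lie between -2.54 and -1.85, the 4 mitochondrial enzymes between -3.63 and -0.83, and the 3 cytosolic enzymes between -0.18 and -0.03.

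All 3 enzymes of serine synthesis were lower. PHGDH (ENSG00000092621, chromosome 1), the dehydrogenase that commits a glycolytic intermediate to serine, was 5.82-fold lower in the libraries labelled knockout, at -2.54 on the log2 scale in the authors' deposited table (95% interval -2.79 to -2.29, edgeR adjusted p = 1.16e-07). It averaged 2.28 log2 CPM in the authors' deposited table, and if each library weighs the same, this mean and fold change imply about 1.66 CPM in knockout and 9.64 CPM in wild type. PHGDH was therefore a low transcript in both groups and ranked as the 22nd lowest fold change of all genes. PSAT1 (ENSG00000135069, chromosome 9), the aminotransferase of the next step, was 4.40-fold lower, at -2.14 in the authors' deposited table (interval -2.26 to -2.02, edgeR adjusted p = 3.27e-09). At a mean of 8.06 log2 CPM in the authors' deposited table, its implied levels were about 113 CPM in knockout and 497 CPM in wild type. Of the 470 genes within 0.5 log2 CPM of PSAT1, itself included, 0 had a lower fold change, and by p-value it stood 5th of all genes. PSPH (ENSG00000146733, chromosome 7), the phosphatase that releases serine, was 3.59-fold lower, at -1.85 in the authors' deposited table (interval -1.99 to -1.70, edgeR adjusted p = 2.59e-08). Its implied levels were about 15.6 CPM in knockout and 55.9 CPM in wild type. The intervals of the 3 enzymes did not overlap, and their order followed the order of the steps, but the difference between genes was not tested. The unprocessed pseudogene PSPHP1, a partial copy of PSPH that may share reads with it, was not past the threshold, at -0.06 in the authors' deposited table (edgeR adjusted p = 0.730).

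Promoter windows of RefSeq (GRCh38.p14, 250 bases before to 50 bases after a start) were matched by symbol for 7 of the 10 members. PSPH, SHMT2 and ALDH1L2 were not among them. The windows were searched on both strands for the composite element bound by ATF4 (TGATGNAA, in 3.62% of 35116 windows), the CCAAT box (34.6%), the E-box CACGTG (7.26%), the E2F site TTTCCCGC (1.63%) and the ETS core CCGGAAG (10.3%). No match in a member overlapped another, and the ETS core was found in 0 of the 7 members. A match describes letters and not a bound site. The CCAAT box was also matched in members that changed little, at -76 and -25 in SHMT1 and at -216 and 35 in MTHFD1. The E-box was matched at -15 in MTHFD1 and at chr6:150866332-150866337 in MTHFD1L. MTHFD1L also had a CCAAT box, at chr6:150866293-150866297. The sequences below are shown because PSAT1 and PHGDH are the serine enzymes whose windows could be read; capitals mark the CCAAT box, which stood at positions -113, -83 and -52 from the PSAT1 start and at -71 in PHGDH. The PSAT1 stretch is chr9:78296875-78297124 and the PHGDH stretch chr1:119711851-119711880, both on the plus strand.
PSAT1: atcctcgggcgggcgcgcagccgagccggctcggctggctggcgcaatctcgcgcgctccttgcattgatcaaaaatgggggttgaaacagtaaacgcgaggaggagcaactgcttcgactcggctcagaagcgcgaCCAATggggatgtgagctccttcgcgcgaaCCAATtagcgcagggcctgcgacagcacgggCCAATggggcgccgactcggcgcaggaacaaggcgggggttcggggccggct
PHGDH: gagtatttccgtCCAATcaaaaggagactg

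All 4 mitochondrial folate enzymes were lower, over a wide range of folds. MTHFD2 (ENSG00000065911, chromosome 2), the mitochondrial dehydrogenase and cyclohydrolase that is high in embryonic and dividing cells, was 3.28-fold lower in the libraries labelled knockout. Its log2 fold change was -1.71 in the authors' deposited table (interval -1.84 to -1.59, edgeR adjusted p = 1.45e-08), with implied levels of about 89.8 CPM in knockout and 295 CPM in wild type. MTHFD1L (ENSG00000120254, chromosome 6), which releases formate from mitochondrial folate, was 2.03-fold lower, at -1.02 in the authors' deposited table (interval -1.16 to -0.89, edgeR adjusted p = 7.44e-07). Its implied levels were about 56.5 CPM in knockout and 115 CPM in wild type. SHMT2 (ENSG00000182199, chromosome 12), which splits serine into glycine and a one-carbon unit, was 1.78-fold lower, at -0.83 in the authors' deposited table (interval -0.94 to -0.71, edgeR adjusted p = 1.26e-06). Its implied levels were about 155 CPM in knockout and 275 CPM in wild type. SHMT2 was thus the smallest change of this group, and 17 of the 691 genes within 0.5 log2 CPM of it were lower still.

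ALDH1L2 (ENSG00000136010, chromosome 12), which oxidises mitochondrial formyl-folate to carbon dioxide with gain of NADPH, had the lowest fold change of the 10. It stood at -3.63 in the authors' deposited table (interval -4.24 to -3.03, edgeR adjusted p = 4.35e-06) and ranked as the 7th lowest of all genes. Its mean was only 0.55 log2 CPM in the authors' deposited table, with implied levels of about 0.264 CPM in knockout and 3.27 CPM in wild type. At that level the size of the fold depends on the prior count of the authors' fit, so 12.4-fold is an approximate figure. ALDH1L2 overlaps C12orf45 on the opposite strand, which had no call (0.17, edgeR adjusted p = 0.126) and lay at 2.87 mean log2 CPM in the authors' deposited table, well above ALDH1L2, so reads of the overlap could weigh on the ALDH1L2 value. SHMT2 overlaps NDUFA4L2 on the opposite strand (GENCODE 29 annotation), which was also lower but lay at -0.62 mean log2 CPM in the authors' deposited table, far below the 7.67 of SHMT2. Whether counting used the strand is not stated in the sources used here.

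The stretches of the mitochondrial group are shown because MTHFD1L was the member of the 7 with the ATF4 composite element. It lay at chr6:150866357-150866364, inside 3 of the 4 windows of that gene. The MTHFD1L stretch is chr6:150866346-150866375 with the composite element in capitals. The MTHFD2 stretch is chr2:74198529-74198558 with the CCAAT box nearest the start, at -74, in capitals. Both lie on the plus strand (GRCh38.p14, RefSeq).
MTHFD1L: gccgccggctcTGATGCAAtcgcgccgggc
MTHFD2: atgcggcagggaCCAATgggtggcggaggg

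Of the cytosolic enzymes, MTHFD1 and TYMS stood near the middle of the table. SHMT1 stood somewhat below it, as the 3489th lowest fold change of 11976 genes. SHMT1 (ENSG00000176974, chromosome 17), the cytosolic counterpart of SHMT2, was 1.13-fold lower, at -0.18 in the authors' deposited table (interval -0.30 to -0.06, edgeR adjusted p = 0.0198). This call was lost at an adjusted p threshold of 0.01. MTHFD1 (ENSG00000100714, chromosome 14), the trifunctional enzyme that takes up formate in the cytosol, stood at -0.04 in the authors' deposited table (interval -0.14 to 0.06, edgeR adjusted p = 0.493). Its implied levels were about 154 CPM in knockout and 159 CPM in wild type. TYMS (ENSG00000176890, chromosome 18), which makes thymidylate from a folate-borne unit, had -0.03 in the authors' deposited table (interval -0.14 to 0.08, edgeR adjusted p = 0.609), with about 39.3 CPM in knockout and 40.2 CPM in wild type. The intervals of MTHFD1 and TYMS span log2 fold changes from -0.14 up to 0.06 and 0.08, so small changes of either sign are compatible with them. TYMS is overlapped on the opposite strand by ENOSF1, which was lower by 0.53 on the log2 scale in the authors' deposited table (edgeR adjusted p = 2.38e-05) and at a like mean of 5.64 log2 CPM, and reads of the overlap could fall to either gene. SHMT1 likewise overlaps SMCR8, which was higher, at 0.34 in the authors' deposited table (edgeR adjusted p = 0.00117).

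The interval of SHMT2 (-0.94 to -0.71) lay wholly below that of SHMT1 (-0.30 to -0.06), and those of MTHFD2 and MTHFD1L wholly below that of MTHFD1. Each of these pairs carries out the same kind of reaction in the 2 compartments. The genes were measured in the same libraries, so the difference between the members of a pair could not be tested from the table. The TYMS stretch is shown as that of an enzyme whose interval spans 0. It is chr18:657603-657632 on the plus strand (GRCh38.p14, RefSeq), and capitals mark the E2F site, read on the opposite strand, at -39 from the start.
TYMS: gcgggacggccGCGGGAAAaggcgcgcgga

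**Figure D2:**
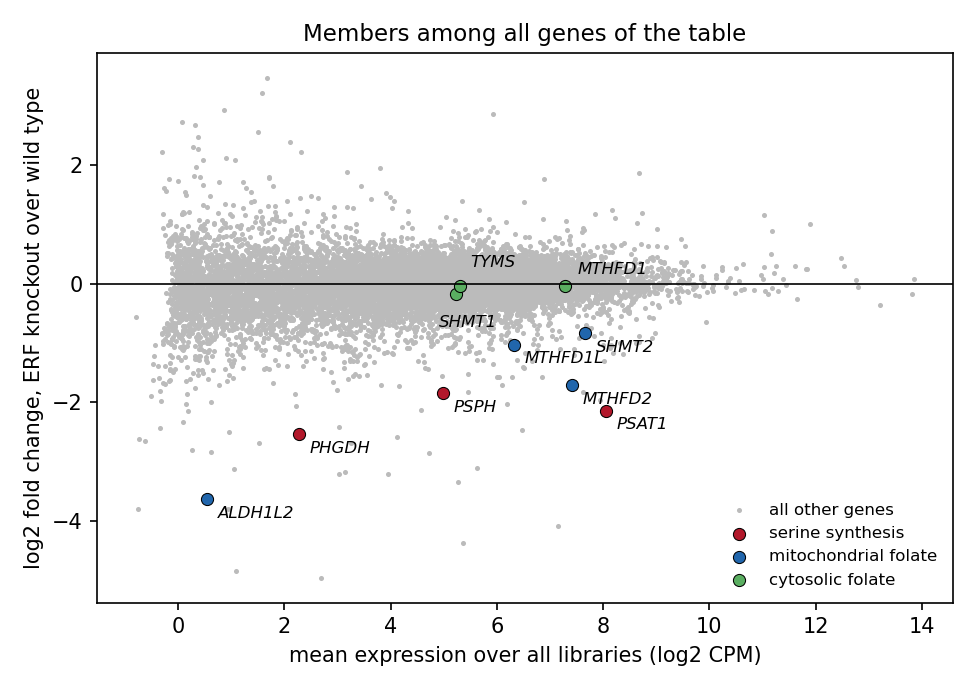
Log2 fold change (y axis, libraries labelled ERF knockout over wild type, sign set through HBG2) against mean expression in log2 CPM (x axis) for every gene of the table in grey and the 10 members in colour. The serine and mitochondrial enzymes lie along the lower edge from 0.55 to 8.06 log2 CPM, while SHMT1, MTHFD1 and TYMS lie within the main body of genes.

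ATF4 RNA, at 8.68 mean log2 CPM, was itself lower by 0.88 on the log2 scale in the authors' deposited table (standard error 0.05, edgeR adjusted p = 3.90e-07). Of the 7 serine and mitochondrial enzymes, 6 had a lower fold change than ATF4, and SHMT2, at -0.83, was close to it. The part of ATF4 in the members' values was not tested.

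The genes that carry, recycle or spend folate outside the members moved in both directions. Of 20 listed genes 13 were measured, of which 2 were lower, 5 higher and 6 without a call, with a median of 0.11 in the authors' deposited table, beside 25.9% lower and 24.9% higher among all genes. SLC25A32, the carrier that brings folate into mitochondria, was 1.58-fold higher, at 0.66 in the authors' deposited table (standard error 0.06, edgeR adjusted p = 1.29e-05), opposite in direction to the mitochondrial enzymes. SLC19A1, the reduced folate carrier of the plasma membrane, was higher as well, at 0.46 in the authors' deposited table. Those called lower were FPGS (-0.24), which traps folate in cells, and methionine synthase MTR (-0.20) in the authors' deposited table. The other higher genes were MTRR (0.36), which reactivates methionine synthase, MTFMT (0.28) and GGH (0.24) in the authors' deposited table. The purine enzymes that use formyl-folate, GART (0.04) and ATIC (0.07), had no call in the authors' deposited table. MTHFD2L, a mitochondrial relative of MTHFD2, stood at 0.04 in the authors' deposited table and was not past the threshold either. SLC19A1, FPGS, MTRR, MTFMT, GGH and MTHFD2L were named after their values were seen.

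Among genes of serine and glycine transport and use, 9 of 14 measured were lower, 1 higher and 4 without a call, beside 25.9% lower and 24.9% higher among all genes. Their median was -0.53 in the authors' deposited table. The transporters moved most. SLC38A1, a neutral amino acid transporter, stood at -3.12 in the authors' deposited table (standard error 0.15, edgeR adjusted p = 2.34e-07) from a low mean of 1.05 log2 CPM. SLC1A4, which carries serine and alanine, was 4.37-fold lower, at -2.13 in the authors' deposited table (standard error 0.07, edgeR adjusted p = 1.22e-08). SLC38A2 (-1.16) and SLC1A5 (-0.98), both neutral amino acid transporters, and the glycine transporter SLC6A9 (-0.87) were also lower in the authors' deposited table. GCAT, a mitochondrial enzyme of glycine metabolism, stood at -0.63 in the authors' deposited table. The exception was SFXN1, the mitochondrial serine carrier, which was 0.36 higher on the log2 scale in the authors' deposited table (edgeR adjusted p = 9.61e-05) and was named after its value was seen. Its relatives SFXN2 (0.12) and SFXN3 (0.04) had no call in the authors' deposited table and were likewise named after their values were seen.

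In the glycine cleavage system, which also yields mitochondrial one-carbon units, 2 of 3 measured genes were lower, beside 25.9% of all genes, and a list this short says little. AMT, its aminomethyltransferase, stood at -1.05 in the authors' deposited table (edgeR adjusted p = 6.82e-05) and DLD, a subunit shared with other dehydrogenase complexes, at -0.34. In the methionine cycle, 2 of 7 measured genes were lower and 0 higher, a share of lower genes near the 25.9% of the whole table. CBS, which spends serine and homocysteine on cystathionine, was 1.84-fold lower, at -0.88 in the authors' deposited table (standard error 0.05, edgeR adjusted p = 4.97e-07), and AHCYL1 stood at -0.32. MAT2A, which makes S-adenosylmethionine, had 0.02 in the authors' deposited table (edgeR adjusted p = 0.701). DLD, AHCYL1 and MAT2A were named after their values were seen.

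TYMS is known to follow the S phase of the cell cycle. The 18 listed S phase and nucleotide genes, all measured, divided evenly, with 6 lower, 6 higher and 6 without a call, beside 25.9% lower and 24.9% higher among all genes. Their median was 0.01 in the authors' deposited table. CTPS1 (0.59), which makes CTP, and RRM2 (0.59), a ribonucleotide reductase subunit, had the highest values of the list in the authors' deposited table, and both were called. The lowest of the list was DUT at -0.30 in the authors' deposited table, named after its value was seen.

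**Figure D3:**
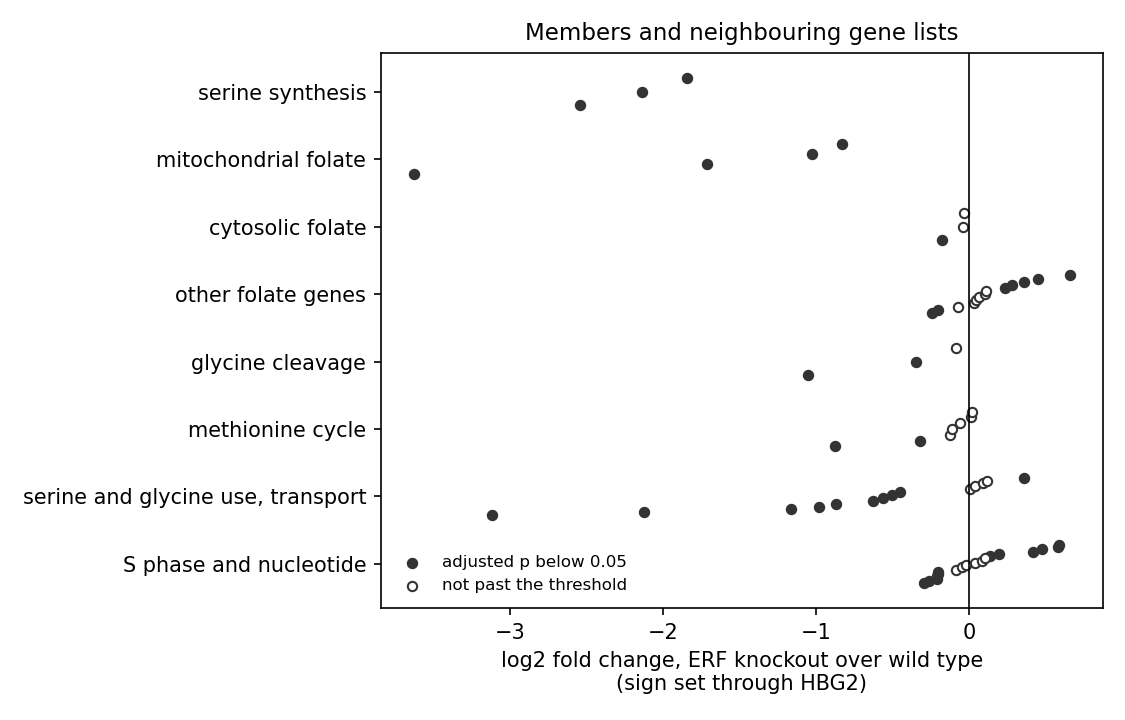
Log2 fold change (x axis, libraries labelled ERF knockout over wild type, sign set through HBG2) of each measured gene in the 3 member groups and 5 neighbouring lists, filled where the adjusted p was below 0.05. The serine and mitochondrial enzymes all lie at or below -0.83, while the 18 S phase genes stay between -0.30 and 0.59.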

How the data were processed

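Total RNA of 5 HUDEP-2 samples (3 labelled ERF knockout, 2 wild type) was extracted with Trizol and made into Illumina TruSeq libraries, per the labels' protocols. Per the submitters' processing notes, edgeR 2.6.12, TopHat2 2.0.4, HTSeq, SAMtools, Cuffdiff and the build hg19/GRCh37 were involved, in roles not stated, and the sources used here give no filter, normalization or strand setting. The columns the authors deposited are, per the file headers, the log2 fold change and mean log2 CPM of each gene with its F score (quasi-likelihood), p-value and FDR; 0 columns hold values per sample. Its 3 rows that name no gene hold 21.5% of the CPM and were left out of all counts here, although the authors' adjustment includes them.

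The deposited log2 fold changes were multiplied by -1, so that HBG2 is higher in the knockout. Standard errors are the absolute log2 fold change over the square root of F, and intervals use a t distribution whose 10.3 degrees of freedom were solved from F and p. Implied group levels give each library equal weight. The functions were tested on simulated data. Python 3.11.15, pandas 2.3.3, NumPy 2.4.6 and SciPy 1.17.1 were used. Named genes were the members, ERF, HBG2, ATF4, up to 6 called genes per neighbouring list with absolute log2 fold changes of at least 0.5, and MTR, SLC25A32, GART and ATIC; some genes of the folate list are not reported here. Members and lists were chosen with earlier results of these data known. The alternatives tried were other adjustments and thresholds, an expression minimum, centring and the opposite sign.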

Additional observations from a re-analysis of the deposited data

How the results depend on the processing

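All 8 lower members kept their direction and call with p-values adjusted over the 11976 genes alone, without the 3 rows that name no gene, and after subtracting the median of the genes at 5 log2 CPM or more, which moved fold changes by 0.03 on the log2 scale; over all genes this centring gave 3532 lower and 2566 higher. SHMT1 (-0.18) was not past a Bonferroni adjustment, an adjusted p of 0.01 or a 2-fold minimum, and SHMT2 (-0.83) not past the last of these. With genes of at least 1 log2 CPM alone, which leaves out ALDH1L2, the median of the members was -1.02. A Bonferroni adjustment left 0 lower and 1 higher of the other folate genes. It left 0 lower of glycine cleavage, 1 lower of the methionine cycle, and 6 lower and 0 higher of serine and glycine use. Of the S phase list 0 stayed lower and 3 higher, and of all genes 464 lower and 314 higher. A 2-fold minimum left 0 lower and 0 higher of the other folate and the S phase genes, 1 lower of glycine cleavage, 0 lower of the methionine cycle, 3 lower and 0 higher of serine and glycine use, and 271 lower and 121 higher of all genes.

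With the sign set so that ERF is lower in the libraries labelled knockout, directions are exchanged by construction: 0 members are lower and 8 higher, the other folate genes have 5 lower and 2 higher, glycine cleavage and the methionine cycle each have 0 lower and 2 higher, and serine and glycine use has 1 lower and 9 higher. The members' median is then 1.37, with PHGDH at 2.54, PSAT1 at 2.14, PSPH at 1.85, SHMT2 at 0.83, MTHFD2 at 1.71, MTHFD1L at 1.02, ALDH1L2 at 3.63, SHMT1 at 0.18, MTHFD1 at 0.040 and TYMS at 0.033. The other named genes stand at 0.88 (ATF4), -0.89 (ERF), -0.66 (SLC25A32), 1.05 (AMT), 0.88 (CBS), 3.12 (SLC38A1), 2.13 (SLC1A4), 1.16 (SLC38A2), 0.98 (SLC1A5), 0.87 (SLC6A9), 0.63 (GCAT), -0.59 (CTPS1), -0.59 (RRM2), 0.20 (MTR), -0.045 (GART) and -0.067 (ATIC).

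No paired analysis was possible because the table holds no values per library; leaving out a library could not be run for the same reason.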

Other observations

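The ATF4 composite element TGATGNAA was also looked up in the promoter windows of all genes of the table that could be matched by symbol. Of 208 genes with the element in at least 1 window, 21 (10.1%) were called lower and at least 2-fold in the libraries labelled knockout, against 134 of 8271 genes (1.62%) without it in the authors' deposited table. Called lower at any fold were 35.1% of the genes with the element and 24.8% of those without, and called higher were 19.2% and 27.0% in the authors' deposited table. The medians lay close to 0, at -0.05 with the element and 0.01 without. These are counts over genes measured in the same libraries, with no test, and a match of letters does not show binding. The 2-fold count was made for lower genes only. Whether genes with the element also differ more often by 2-fold on the higher side is therefore not known. The other motifs were not counted in this way, so no comparison with another motif can be given. A gene with more windows has more places for a match, and MTHFD1L, with 4 windows, is among the 21. Whether ATF4 has a part in these differences was not tested.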
